A study of Mus musculus with 4 samples.

Results

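Npas4 and Bdnf are 2 of the 230 genes in the deposited expression table, and both were taken by name, in all 4 libraries. Npas4 encodes a neuron-specific transcription factor of the bHLH-PAS family, and Bdnf encodes brain-derived neurotrophic factor. The libraries were made from brain of C57Bl/6 mice aged 6 weeks, with 1 library for each of tau+/+ with vehicle, tau+/+ with 50 mg/kg pentylenetetrazole (PTZ), tau-/- with vehicle and tau-/- with 50 mg/kg PTZ, injected into the peritoneum. PTZ blocks the GABA receptors that carry inhibition and so drives mice into seizures, and RNA of the brains was sampled an hour after the injection. Vehicle is called sham in the labels, and no other agent is named for any group. In tau-/- mice, cDNA of green fluorescent protein was knocked into the first exon of Mapt, the gene of tau, so these animals lack tau in all cells and throughout life. PTZ-injected mice were chosen for a similar seizure score, and the sources used here do not say how many mice went into a library. The labels also speak of primary neurons, which the methods do not for the PTZ experiment.

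Neurons that are strongly excited switch on Npas4 through calcium entry, within minutes and without new protein synthesis. Npas4 protein pairs with an Arnt partner, binds promoters and enhancers of later genes, and is known for adjusting the inhibitory input of excitatory neurons. Bdnf is a well-known target of Npas4. Its protein is a secreted neurotrophin that acts through the TrkB receptor on synaptic strength and neuronal survival, and its transcription also answers to CREB and other calcium-dependent factors. The comparison of the genotypes asked whether the genes that seizures switch on in tau+/+ brain are also switched on without tau.

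The promoters of both genes were searched for short motifs through which calcium signals and bHLH-PAS dimers are known to act. Stretches with matches are shown. Npas4 lies on chromosome 19 of GRCm38 from 4984355 to 4990316 on the minus strand (GENCODE M21), and its protein-coding transcript has 8 exons. The stretch chr19:4990128-4990157, on the minus strand and in capitals where it holds both matches to a CRE half-site (CGTCA on either strand), lies upstream of the RefSeq start at 4989971 and inside the first exon of the longer, protein-coding GENCODE transcript.
Npas4: cgttcgaCGTCAcgggaTGACGtcggaagt
Bdnf lies on chromosome 2 from 109674700 to 109727007 on the plus strand. It has 11 annotated transcripts with 9 distinct starts, and all of them run into the same last exon, from 109723382 to 109727007, so that transcripts differ in their first exons while the neurotrophin itself is encoded in the shared exon. The 250 bases before each of 2 of these starts are given, chr2:109674450-109674699 for the most upstream start and chr2:109692186-109692435 for the start at 109692436, because they hold the matches found upstream of a start in the RefSeq windows of Bdnf. Capitals mark CRE half-sites (CGTCA) and the bHLH-PAS core (TCGTG), each on either strand.
Bdnf start 1: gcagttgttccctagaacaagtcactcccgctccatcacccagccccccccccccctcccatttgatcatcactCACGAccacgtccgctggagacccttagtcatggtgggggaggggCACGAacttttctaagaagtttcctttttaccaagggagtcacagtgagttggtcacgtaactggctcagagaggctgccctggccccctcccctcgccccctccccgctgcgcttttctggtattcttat
Bdnf start 3: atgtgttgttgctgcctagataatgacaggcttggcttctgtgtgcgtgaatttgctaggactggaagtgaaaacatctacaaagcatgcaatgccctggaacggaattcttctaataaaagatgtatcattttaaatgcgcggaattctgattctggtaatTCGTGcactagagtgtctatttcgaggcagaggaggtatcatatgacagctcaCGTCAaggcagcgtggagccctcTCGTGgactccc
The sequences are from RefSeq on GRCm38.p6, whose windows run from 250 bases before a start to 50 bases after it, with 1 window for Npas4 and 7 for Bdnf, whose starts are numbered in the order of these windows. Not every GENCODE start of Bdnf has a window of its own. Sequence before the others was searched only where the window of another start covers it, as for most of that before the start at 109694469.

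In the Npas4 window the CRE half-sites lay from -179 to -175 and from -169 to -165, counted from the start as 0, and the bHLH-PAS core was not found. Bdnf start 1 held the bHLH-PAS core from -176 to -172 and from -131 to -127, and no CRE half-site. Bdnf start 3 held a CRE half-site from -35 to -31 between 2 bHLH-PAS cores, which lay from -88 to -84 and from -12 to -8. Bdnf start 2 had 1 core after its start, from 16 to 20, and the other 4 Bdnf windows held neither motif. The full CRE (TGACGTCA, which contains the half-site), the AP-1 site (TGACTCA), the E-box (CACGTG) and the CArG box were found in none of these 8 windows. Such short motifs are common: of 32851 promoter windows of the mouse genome, 20.8% held a CRE half-site, 16.0% the bHLH-PAS core, 7.15% the E-box, 5.20% the AP-1 site, 1.79% the full CRE and 1.63% the CArG box. A match is a description of the letters and not a bound site. The expression values are per gene, so they pool all Bdnf starts and do not show which of them was used.

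**Figure D1:**
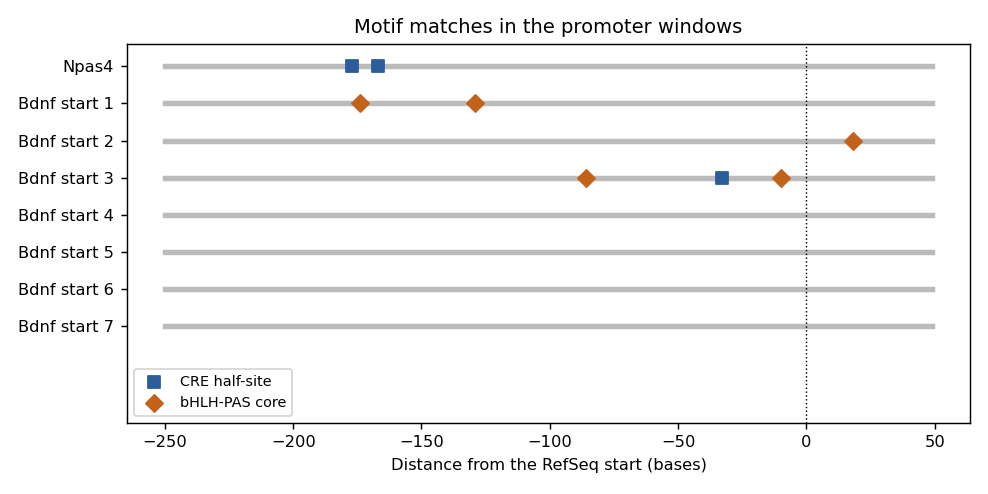
Matches to the CRE half-site (squares) and the bHLH-PAS core (diamonds) in the RefSeq promoter window of Npas4 and the 7 windows of Bdnf, by distance in bases from each start (dotted line at 0), with each gray bar a window. Npas4 has both of its CRE half-sites between -179 and -165, and Bdnf start 3 is the window with both kinds of motif.

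Npas4 stood at 3.21 FPKM after vehicle and 76.9 FPKM after PTZ in the tau+/+ libraries, and at 3.57 FPKM and 5.58 FPKM in those of tau-/-. The tau+/+ PTZ library stood far above the other 3, which kept the order tau-/- PTZ, tau-/- vehicle and tau+/+ vehicle. FPKM (fragments mapped to a gene, scaled by transcript length and sequencing depth) can be compared between genes, but each condition has 1 library, so none of these values has a replicate check and it cannot be said which neighbors in the order differ beyond their spread. No test between conditions was possible, and the number of fragments behind a value cannot be read from FPKM.

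In tau+/+, Npas4 was 24.0-fold higher after PTZ than after vehicle, a log2 response of 4.58. Of the 230 listed genes, 76.1% were higher by over 1.5-fold, the threshold of the study, in this comparison, and 23.9% were lower, because the authors chose the genes for a change in these same libraries. Only Fosb, which encodes an AP-1 subunit, was above Npas4 in the rank of the response, at 4.72, and Atf3, a stress-induced factor of the ATF family, followed at 4.40. In tau-/-, Npas4 was 1.56-fold higher after PTZ than after vehicle, a log2 response of 0.64, which was rank 17 of the 230 genes. In tau-/-, 8.70% of the listed genes were higher by over 1.5-fold after PTZ and 16.5% were lower, so Npas4 was among the few that were higher. With 1 FPKM added to every value the log2 response was 0.53, under the threshold of 1.5-fold. The nearest genes in that rank were Unc13c, a synaptic vesicle priming factor, at 0.68 and Rai14, an actin-binding protein, at 0.63.

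The gain in level was 73.7 FPKM in tau+/+ and 2.01 FPKM in tau-/-, so the tau-/- gain was 2.73% of the tau+/+ gain. On the log2 scale, the response of Npas4 was 3.94 units smaller in tau-/- (difference of responses -3.94). The signed difference was negative by over 1.5-fold in 68.3% of the listed genes and positive by over 1.5-fold in 14.8%. Genes that rose in tau+/+ and fell in tau-/- are among the negative ones, and a milder fall in tau-/- counts as positive. The difference of Npas4 was the 12th lowest of the 230 genes. The genes below it included Fosb at -4.11 and choroid plexus markers, described further on, such as Ttr at -5.79. Between the PTZ libraries, Npas4 was 13.8-fold lower in tau-/- than in tau+/+, where 60.4% of the listed genes were lower by over 1.5-fold and 6.09% were higher. Of the 175 listed genes that were higher in tau+/+ PTZ than in tau+/+ vehicle, Npas4 had the largest ratio of tau+/+ PTZ to the highest of the other 3 libraries, at 13.8 against a median of 1.64. The list was made by the authors for a lacking or milder response in tau-/-, so a smaller tau-/- response of either gene follows in part from its being listed.

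Bdnf stood at 13.2 FPKM after vehicle and 26.5 FPKM after PTZ in the tau+/+ libraries, and at 14.3 FPKM and 12.2 FPKM in those of tau-/-. The tau+/+ PTZ library was again the highest, and the other 3 lay close together, with the highest 1.17-fold above the lowest. Among the 175 higher genes the median of that spread was 1.47-fold, and Bdnf had the 22nd smallest, while Npas4 had a spread of 1.74-fold and the 117th smallest.

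In tau+/+, Bdnf was 2.01-fold higher after PTZ, a log2 response of 1.01 and rank 85 of the 230 genes. Its neighbors in that rank were Tekt1, a protein of cilia, at 1.01, and Wfikkn2, a secreted protease inhibitor, at 0.99. In tau-/- the level after PTZ was 0.858-fold that after vehicle, a log2 response of -0.22 within the 1.5-fold limit, at rank 144, between the predicted gene Gm12191 and Egr3, an activity-induced zinc finger factor, both at -0.22. The difference of responses was -1.23. Between the PTZ libraries Bdnf was 2.17-fold lower in tau-/-. The RNA of Bdnf is thus described by 1 high library and 3 similar ones. Npas4 also had a small excess in tau-/- PTZ, which was under 1.5-fold with 1 FPKM added. The tau+/+ PTZ library was the highest for 174 of the 175 higher genes, so this trait is shared by nearly all of them.

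**Figure D2:**
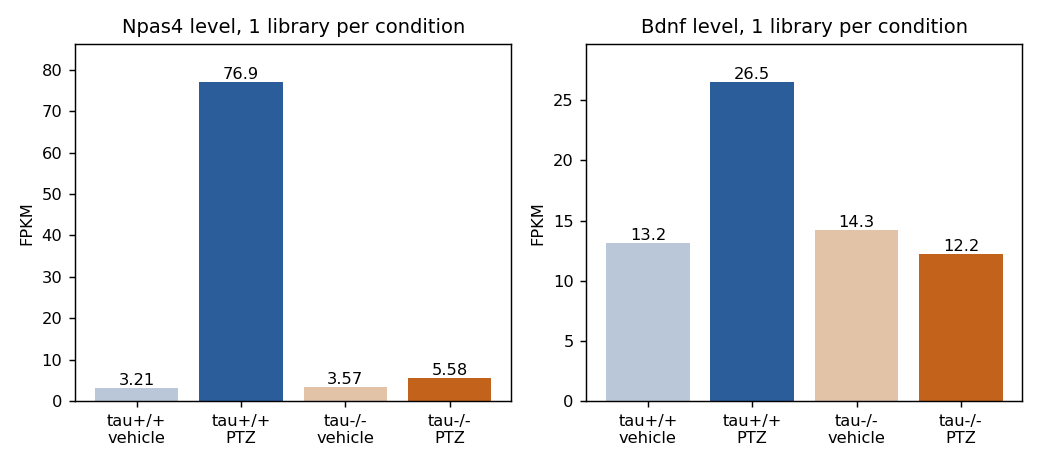
FPKM of Npas4 (left) and Bdnf (right) in the 4 libraries, with 1 bar per library, no error bars because each condition has 1 library, and axes that start at 0. Npas4 reaches 76.9 FPKM in tau+/+ PTZ and stays between 3.21 and 5.58 FPKM elsewhere, and Bdnf reaches 26.5 FPKM and stays between 12.2 and 14.3 FPKM.

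After vehicle, the genotypes were near each other for both genes. Npas4 was 1.11-fold higher in tau-/- than in tau+/+ (log2 0.15), and Bdnf was 1.08-fold higher (log2 0.12). In this comparison 13.9% of the listed genes were higher and 10.0% were lower in tau-/- by over 1.5-fold, and the median log2 difference of all listed genes was 0.11. Against tau+/+ vehicle, the log2 value of tau-/- PTZ was 0.80 for Npas4 and -0.11 for Bdnf, where the response within tau-/- was 0.64 and -0.22, with 14.8% of the listed genes higher and 13.9% lower by over 1.5-fold. For comparison, Per1, a PAS-domain protein of the circadian clock, was 0.78 log2 units higher in the tau-/- vehicle library than in that of tau+/+, which moved its tau-/- response from -0.01 to 0.77 when the baseline was changed.

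The order of Npas4 and Bdnf turned around in tau+/+ PTZ. On the FPKM scale, Npas4 was at 0.244 times the level of Bdnf in tau+/+ vehicle and at 0.251 times in tau-/- vehicle. It was at 2.90 times the level of Bdnf in tau+/+ PTZ and at 0.457 times in tau-/- PTZ. By level, Npas4 went from rank 120 of the listed genes in tau+/+ vehicle to rank 13 in tau+/+ PTZ, and was at ranks 109 and 81 in tau-/- vehicle and tau-/- PTZ. Bdnf stayed between ranks 38 and 49 in all 4 libraries.

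**Figure D3:**
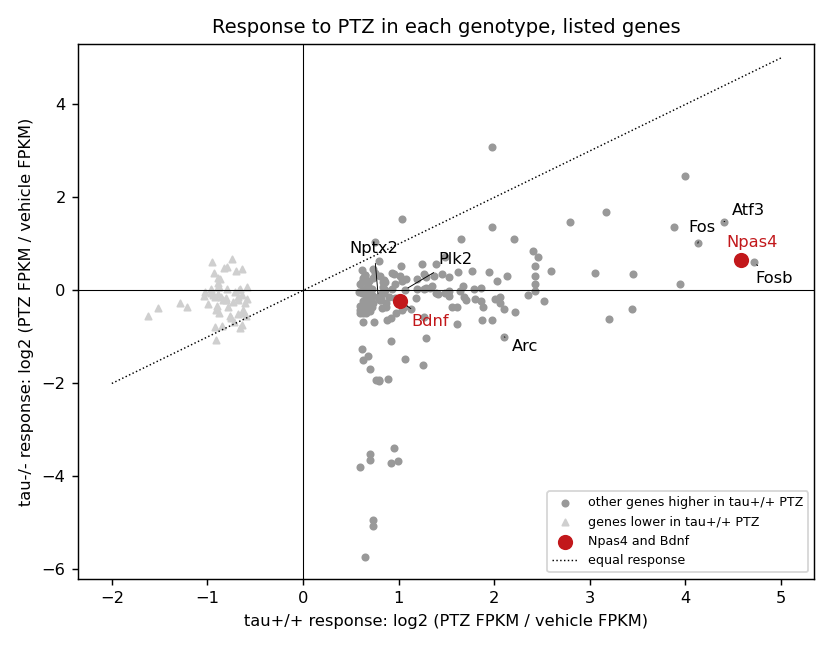
Response to PTZ in tau+/+ (horizontal axis) and tau-/- (vertical axis), as log2 of PTZ over vehicle FPKM, for the listed genes (Defb11, listed at 0 in tau-/- PTZ, is not drawn), with the dotted line marking equal responses. Npas4 lies at 4.58 and 0.64, at the far right beside Fosb, and Bdnf lies at 1.01 and -0.22 in the dense group of genes near 0 on the vertical axis.

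The genes whose levels over the 4 libraries were most like those of Npas4, by Euclidean distance between log2 FPKM values centered on each gene's mean, were Fosb at 0.39, Atf3 at 0.64, Btg2 at 0.74, Fos at 0.84 and Egr2 at 1.01. All 5 are activity-induced genes, with Fos and Fosb as AP-1 subunits, Egr2 as a zinc finger factor and Btg2 as an antiproliferative regulator. Their tau-/- responses were not alike. Fosb, at 0.60, was close to Npas4, and Egr2 was at 0.13, whereas Fos, Btg2 and Atf3 were at 1.01, 1.36 and 1.48. Egr2 differed also after vehicle, with 0.913 FPKM in tau+/+ and 1.72 FPKM in tau-/-. With Pearson's correlation over the same 4 libraries, which leaves out the size of the response, the nearest genes were Ptgs2, Ier2, Dnajb1, Mcl1 and Fosl2, so 0 of the 5 were shared.

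The genes most like Bdnf were Spty2d1 at 0.13, Coq10b at 0.15, 9030025P20Rik at 0.18, Nptx2 at 0.18 and Ifrd1 at 0.19, and 3 of these were also among the 5 nearest by correlation. Nptx2 encodes a secreted pentraxin that gathers AMPA receptors at synapses, and Spty2d1 and Coq10b are a histone chaperone and a coenzyme Q-binding protein of mitochondria. Nptx2 stood at 14.1 FPKM after vehicle and 24.4 FPKM after PTZ in the tau+/+ libraries, and at 14.5 FPKM and 13.1 FPKM in those of tau-/-. Its level and its 4 values thus lay beside those of Bdnf. The distances are descriptions over 4 libraries within a list chosen for this kind of pattern.

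**Figure D4:**
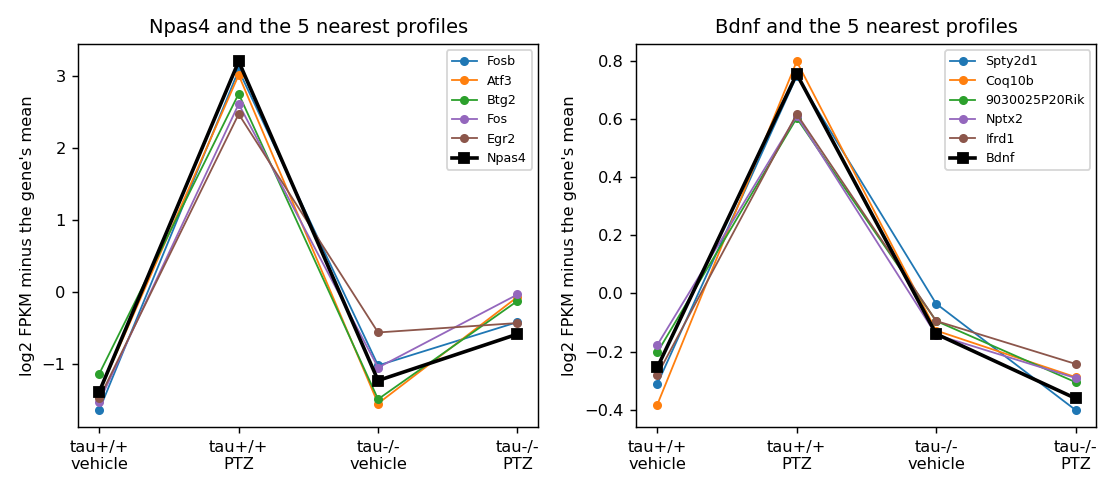
log2 FPKM minus each gene's mean over the 4 libraries, for Npas4 (left, black squares) and Bdnf (right, black squares) and the 5 genes nearest to each (colored circles), with different vertical scales. All profiles peak in tau+/+ PTZ, and those in the Npas4 panel lie furthest apart in tau-/- vehicle, between Atf3 and Egr2. Npas4 is the lowest of its panel in tau-/- PTZ, while the profiles near Bdnf stay together.

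Of 5 genes linked to Npas4 as targets, Bdnf, Nptx2 and Plk2 were listed. Plk2, a kinase that acts on synaptic scaling, stood at 63.4 FPKM after vehicle and 133 FPKM after PTZ in the tau+/+ libraries, and at 75.4 FPKM and 76.3 FPKM in those of tau-/-. Bdnf, Nptx2 and Plk2 gave tau+/+ responses of 1.01, 0.79 and 1.07 on the log2 scale. Their tau-/- responses were -0.22, -0.15 and 0.02, all 3 within 1.5-fold, as were 74.8% of all listed genes. Of 15 genes of neurotrophin signaling, the receptors included, Bdnf and Plat were listed. Plat, tissue plasminogen activator, which activates the plasmin that can cleave proBDNF, gave a tau+/+ response of 0.66 and a tau-/- response of -0.13. The TrkB and p75 receptors and the other neurotrophins were not analysed here.

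Of a list of 35 HLH and PAS factors, 6 were listed, and Npas4 had the largest tau+/+ response of these. All 6 were higher by over 1.5-fold after PTZ in tau+/+, as were 76.1% of all listed genes, with a median log2 response of 1.14 against 0.80 for all listed genes. Per1 was at 1.53, Atoh8, a bHLH factor, at 1.33, Hes1, a Notch-induced repressor, at 0.95, Id1, an inhibitor of bHLH factors, at 0.83 and Bhlhe40, a repressor of the clock, at 0.66. In tau-/- the median was 0.12 against -0.10 for all listed genes, and Npas4 was the only one of the 6 past 1.5-fold. The other 5 were within 1.5-fold, as were 74.8% of all listed genes. The lowest of them, Bhlhe40, was at -0.24. Of 16 regulators of Bdnf transcription, Npas4, Srf and Bhlhe40 were listed. Srf, the factor of the CArG box, stood at 15.1 FPKM after vehicle and 23.4 FPKM after PTZ in the tau+/+ libraries, and at 18.5 FPKM and 15.7 FPKM in those of tau-/-. Bhlhe40, which can repress Bdnf, was at 29.7 FPKM, 47.0 FPKM, 46.4 FPKM and 39.2 FPKM in the same order. Arnt2 and the CREB and MEF2 genes were not analysed here.

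Among the activity-induced transcription factors, 20 of 23 were listed. All 20 were higher by over 1.5-fold in tau+/+ PTZ, against 76.1% of all listed genes, each of which passed this threshold in one direction or the other by selection. Their log2 responses ran from 0.93 for Klf2 to 4.72 for Fosb, with a median of 2.19 against 0.80 for all listed genes. In tau-/- the median was 0.36 against -0.10 for all listed genes, with 6 of the 20 higher and 1 lower by over 1.5-fold, where 8.70% and 16.5% of all listed genes were. The tau-/- responses ran from -1.02 for Cebpb, a bZIP factor, to 1.48 for Atf3. Npas4 was thus above the median of these factors in both genotypes, and its difference between the PTZ libraries, with a log2 of -3.78, was the largest of the 20. Against tau+/+ vehicle the median in tau-/- PTZ was 0.81, close to the 0.80 of Npas4.

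Of 22 activity-induced effector genes, 13 were listed, and 12 of them were higher and 1, Rnd1, was lower by over 1.5-fold in tau+/+ PTZ, where 76.1% and 23.9% of all listed genes were. Their log2 responses ran from -0.67 for Rnd1, which was at 0.01 in tau-/-, to 2.43 for Gal, the precursor of galanin, with a median of 1.64, so Bdnf at 1.01 was below the median. In tau-/- the median was -0.13, or 0.20 against tau+/+ vehicle, and 0 of the 13 were higher and 2, Arc and Kcnj2, were lower by over 1.5-fold. Both counts were near the shares of all listed genes, 8.70% higher and 16.5% lower. Kcnj2, a potassium channel, was at -0.64. The range there was from -0.999 for Arc, a regulator of AMPA receptor trafficking, to 0.32 for Ptgs2, the inducible cyclooxygenase. In the set of 12 MAPK pathway genes, which the study drew from these libraries and which holds Bdnf, the tau+/+ responses had a median of 1.53 and the tau-/- responses one of -0.17, or of 0.20 against tau+/+ vehicle. Srf at 0.63 and Fos at 4.13 marked its range in tau+/+, and Gadd45b, a growth arrest gene, at -0.57 and Dusp1, a phosphatase of MAP kinases, at 1.11 marked it in tau-/-. Bdnf lay below the median of that set in both genotypes.

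**Figure D5:**
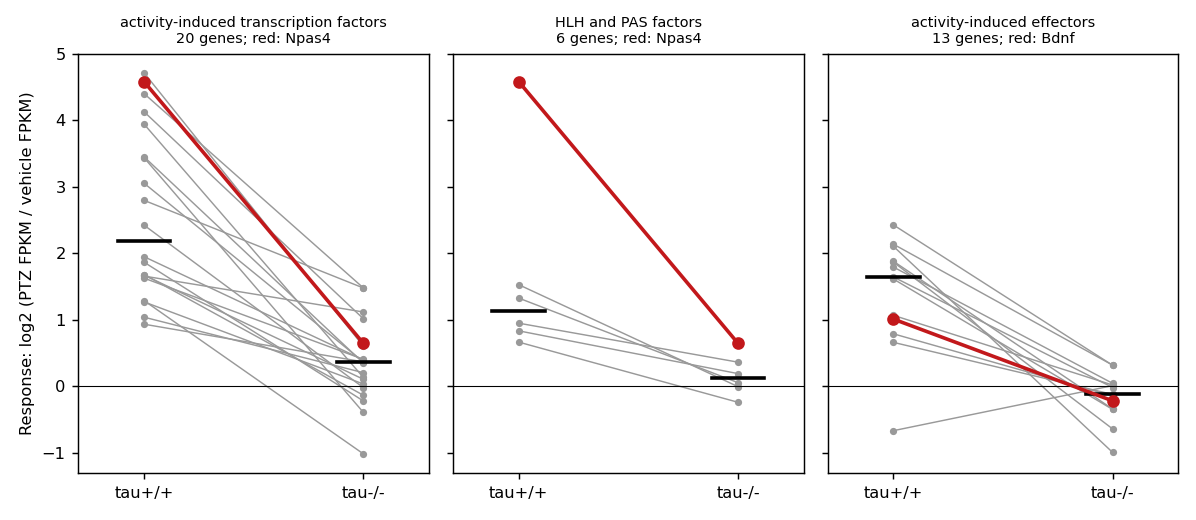
log2 response to PTZ in tau+/+ and tau-/- for the listed members of 3 gene lists, with 1 line per gene, the median of each list as a black bar and Npas4 or Bdnf in red. Npas4 drops from 4.58 to 0.64 and stays above both medians of the transcription factors and of the HLH and PAS factors, and Bdnf goes from 1.01 to -0.22, below both medians of the effectors.

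Mapt is not among the listed genes, so only the labels give the genotype of each library, and 0 of 7 neuronal markers were listed, so the share of neurons in each library was not measured. In bulk tissue, fewer cells of a type and less RNA per cell cannot be told apart. The tau-/- PTZ library stood apart in markers of the choroid plexus, an epithelium that makes cerebrospinal fluid. Of 12 such markers 9 were listed, and their levels summed to 1551 FPKM after vehicle and 2574 FPKM after PTZ in the tau+/+ libraries, and to 1141 FPKM and 36.5 FPKM in those of tau-/-, with none at 0. Ttr, which encodes the thyroid hormone carrier transthyretin, made up most of each sum, with 1504 FPKM and 2492 FPKM in tau+/+ and 1107 FPKM and 33.1 FPKM in tau-/-. All 9 markers were lower in tau-/- PTZ than in tau-/- vehicle, with a median log2 ratio of -3.71. Wfikkn2, beside Bdnf in the rank of the tau+/+ response, is one of these markers. The summed level of the 5 of 8 listed markers of meninges ran from 11.0 to 26.2 FPKM and was lowest in the same library. The markers were not alike: Pcolce, Aldh1a2 and Mxra8 were each lowest there. Mfap2, at 3.43 FPKM in tau-/- PTZ, was above both vehicle libraries (2.59 and 2.63 FPKM), and Lum, at 1.73 FPKM, was level with tau+/+ vehicle. Of the markers of endothelium, microglia and astrocytes, 1 of 6 (Klf2), 2 of 6 (Cd14 and P2ry6) and 1 of 5 (Fabp7) were listed. Their summed levels ran from 5.97 to 11.9 FPKM, from 1.95 to 4.25 FPKM and from 24.1 to 41.9 FPKM, each highest in tau+/+ PTZ. So were 174 of the 175 listed genes that were higher in tau+/+ PTZ than in tau+/+ vehicle, which follows in part from the authors' selection. Klf2 is also among the activity-induced transcription factors above, and Cd14 is in the MAPK set, so these levels do not measure the share of a cell type. The part of tissue composition in the values of Npas4 and Bdnf was not tested. The region of Bdnf also holds the start of an antisense gene, Gm45346, from 109670908 to 109676591, and whether the counting used strand is not given in the sources used here.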

How the data were processed

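The deposited values are FPKM in 4 libraries, 1 per condition, for 230 genes that the authors selected for a response in tau+/+ and a lacking or milder response in tau-/-. The authors aligned Illumina read pairs with TopHat2 2.03 and Bowtie2 2.0.0.6 to GRCm38/mm10, allowing 2 mismatches, and computed FPKM with Cuffdiff 2.01, as given in the submitters' processing notes and the methods. The annotation they counted on and how Cuffdiff scaled the libraries are not given in the sources used here. The table also holds the authors' log2 fold changes and p-values, which were not used. The depth of each library could not be read from FPKM.

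Each response is log2 of the FPKM ratio, without a pseudocount or a filter. Genes were counted past the study's threshold of 1.5-fold. No test was made across conditions. The text names both members, the listed genes of the 4 lists closest to them, the 5 genes nearest to each in profile, their neighbors in rank, and the extremes of the 3 larger lists. Members and lists were chosen with earlier results of these data known. Gene positions are from GENCODE M21 on GRCm38 and promoters from RefSeq on GRCm38.p6. The software was Python 3.11.15, numpy 2.4.6, pandas 2.3.3 and matplotlib 3.10.9.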

Additional observations from a re-analysis of the deposited data

Results flagged for a closer look

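In 4 of the named genes, the log2 response was past 1.5-fold in opposite directions in the genotypes, as it was in 14.3% of all 230 listed genes, and neither Npas4 nor Bdnf was among them. Their genotype difference was not tested, since each condition has 1 library. Arc was at 2.11 in tau+/+ and -0.999 in tau-/-, and Cebpb was at 1.29 and -1.02. Wfikkn2, a choroid plexus marker at 0.0959 FPKM in tau-/- PTZ, was at 0.99 and -3.67, and Unc13c was at -0.74 and 0.68.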

How the results depend on the processing

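No paired analysis was possible because each condition has 1 library, and no replicate could be left out for the same reason. Of 82 recomputed values, 43 differed by less than 0.1 in log2, or by less than 1.5 times for a rank or share, 39 moved and 0 of those past 1.5-fold changed sign. With a pseudocount of 1 FPKM, the log2 values of Npas4 were 4.21 in tau+/+, 0.53 in tau-/-, -3.57 between the PTZ libraries and -3.68 for the difference of responses. With tau+/+ vehicle as baseline, the tau-/- response was 0.80 for Npas4 and -0.11 for Bdnf, and the difference of responses was -3.78 and -1.12. A shared baseline cancels from that difference, which is then the log2 difference between the PTZ libraries and no further check. Among the 102 genes with a mean of at least 5 FPKM, Npas4 was at rank 8 in tau-/- and Bdnf at ranks 49 and 72 in tau+/+ and tau-/-. Fewer genes were ranked there, and their mix also differed. Of them, 1.96% were lower by over 1.5-fold in tau+/+ PTZ, against 23.9% of all 230 genes. By correlation, 0 of the 5 genes nearest to Npas4 and 3 of the 5 nearest to Bdnf were shared.

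With a threshold of 2-fold, the shares higher and lower were 37.0% and 2.61% for tau+/+, 5.22% and 10.0% for tau-/-, 4.35% and 1.74% between vehicle libraries and 0% and 37.0% between PTZ libraries. With a pseudocount of 1 FPKM, 6.52% were lower in tau+/+, 5.22% and 9.13% were higher and lower in tau-/-, 6.52% and 3.91% between vehicle libraries, and 0% were higher between PTZ libraries. With a mean of at least 5 FPKM, the shares lower were 1.96% for tau+/+, 9.80% for tau-/- and 5.88% between vehicle libraries, and 0% were higher between PTZ libraries.

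With a pseudocount of 1 FPKM, the median tau+/+ responses were 1.72 for the transcription factors, 1.15 for the effectors, 0.82 for the HLH and PAS factors and 1.31 for the MAPK set. With tau+/+ vehicle as baseline, the median tau-/- responses were 0.81, 0.20, 0.56 and 0.20 in the same order, which turned the sign of the medians of the effectors and of the MAPK set. The cause of these moves was not tested, and the unknown depth limits every low value.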
